A study of Mus musculus with 4 samples.

Results

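Microglia and macrophage genes were followed in the retina of mice labelled Q344X and of wild-type (WT) mice. The group holds 33 genes, a fixed list of names, of the 52636 genes in the deposited table, and all 33 were found by symbol. They were divided by known role into 9 homeostatic genes of resting microglia, 13 general myeloid genes, 10 genes known to rise in activated microglia, and Mrc1, a marker of border macrophages. Of the 33, 32 had a mean normalized count of at least 10 and were tested, and Cst7 was too rare.

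Microglia are the resident macrophages of the retina. Under resting conditions they carry receptors for signals from neurons, such as the fractalkine receptor and purinergic receptors, and they depend on signalling through the colony stimulating factor 1 receptor. When photoreceptors degenerate, microglia are known to move toward the outer retina and to take up photoreceptor debris. Activated phagocytes lower the homeostatic genes and raise a programme that includes Trem2, Spp1, Gpnmb, Lgals3, Cst7 and lysosomal proteases.

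Whole-retina RNA was measured by RNA sequencing of polyadenylated RNA in 2 libraries from Q344X mice and 2 from WT mice, all 3 weeks old. No treatment is named. The sources used here do not state strain, sex, litter, how the allele was made or whether the mice carried 1 or 2 copies. Per the series' text, 3 replicates per group were begun and 2 kept, the others having poor RNA or lying apart, while 3 Q344X mice and 2 WT mice appear in the extraction protocol. Since no source says that each library is its own animal, the spread behind every p-value may be technical.

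The libraries held 18452679 to 19706573 reads in genes, computed from the worth of 1 read in each column, which was 0.96 to 1.04 normalized counts. A normalized count is therefore close to a read, and the median tested gene of the group rested on a mean of 44.3, against 402 for all tested genes. WT replicate 1 stood apart in its sex-linked genes. It held Xist, the X-inactivation RNA, at 20823 normalized counts together with the Y-linked genes Ddx3y at 1598, Eif2s3y at 2019.6, Kdm5d at 852 and Uty at 558, which are transcripts of both sexes. The Y-linked genes were at 0 in both Q344X libraries and at 0 or 1 in WT replicate 2, and in these 3 libraries Xist was at 26839 to 55578. Calls, counts of calls and role medians are therefore also given without WT replicate 1, as are the estimates of listed genes that moved most.

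Promoter sequence was at hand from RefSeq (GRCm38.p6) for 26 of the 33 genes. Shown are the 250 bases before the start of the 2 genes that fell, Spp1 and Gpnmb, and of P2ry13 and Trem2, a homeostatic and an activation gene that did not pass. They were chosen after the values were seen, and the window of Spp1 is that of 1 of its 2 RefSeq starts. Capitals mark GAGGAA, the core bound by PU.1 (the transcription factor of the myeloid lineage), and CATGTG, an E-box bound by MITF, each on either strand. The windows lie at chr5:104434861-104435110 (plus strand), chr6:49036268-49036517 (plus), chr3:59210883-59211132 (minus) and chr17:48346151-48346400 (plus).
Spp1: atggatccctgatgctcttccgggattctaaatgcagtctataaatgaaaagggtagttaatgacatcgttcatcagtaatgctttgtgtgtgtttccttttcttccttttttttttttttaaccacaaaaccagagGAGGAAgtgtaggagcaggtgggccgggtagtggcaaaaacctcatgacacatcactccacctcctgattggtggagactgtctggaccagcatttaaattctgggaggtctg
Gpnmb: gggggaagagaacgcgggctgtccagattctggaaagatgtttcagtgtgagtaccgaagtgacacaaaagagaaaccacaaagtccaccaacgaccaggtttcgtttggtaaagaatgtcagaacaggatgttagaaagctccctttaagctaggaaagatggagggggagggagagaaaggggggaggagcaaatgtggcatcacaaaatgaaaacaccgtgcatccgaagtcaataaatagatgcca
P2ry13: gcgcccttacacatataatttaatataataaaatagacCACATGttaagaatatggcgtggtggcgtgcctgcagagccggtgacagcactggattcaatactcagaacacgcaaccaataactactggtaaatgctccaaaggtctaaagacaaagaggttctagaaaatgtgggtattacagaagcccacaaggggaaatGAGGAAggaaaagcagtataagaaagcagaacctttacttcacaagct
Trem2: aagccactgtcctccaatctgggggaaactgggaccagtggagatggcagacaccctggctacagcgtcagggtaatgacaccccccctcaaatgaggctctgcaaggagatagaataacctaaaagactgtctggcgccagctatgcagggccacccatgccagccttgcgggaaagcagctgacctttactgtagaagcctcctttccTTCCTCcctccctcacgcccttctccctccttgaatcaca

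The PU.1 core was present in 16 of the 32 start windows of the group, which belong to 15 of the 26 genes, and in 23.3% of all 32851 windows of the same length. It lay 113 bases before the start of Spp1 and was not found in the Gpnmb window. CATGTG was in 4 of the 32 windows, those of C1qb, C1qc, Mrc1 and P2ry13 and so not of Gpnmb, and in 12.3% of all windows. The palindromic E-box CACGTG was in 3 of the 32 and in 6.02% of all. Matches are letters in a window and no evidence of binding.

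In the Q344X retina, 2 of the 32 tested genes fell, 0 rose and 30 did not pass (limma, adjusted p under 0.05 over all 16833 tested genes). Over all tested genes 9.1% fell and 5.46% rose, 14.6% together. At an unadjusted p under 0.05 there were 5 genes of the group, Spp1, Gpnmb, C1qc, Lgals3 and Sall1, where all tested genes gave 34.7%. The groups' libraries did not overlap in 17 of the 32 genes, 53.1%, with Q344X above in 8 and below in 9. Of all tested genes 63.1% did not overlap, 31.4% with Q344X above and 31.7% below. The median log2 fold change of the 32 genes was 0.07, beside 0.02 for all tested genes. Standard errors were wider than usual, with a median of 0.32 for the group and 0.25 for all genes, and the smallest change called in any gene was 0.67 on the log2 scale. Without WT replicate 1, 0 of the 32 passed in either direction (388 genes of the table rose and 666 fell), and the medians of the homeostatic, general myeloid and activation genes were -0.14, 0.25 and 0.08. The estimates of 21 genes stayed within 1.5 times of their value with 4 libraries, C1qc among them (0.88, adjusted p = 0.289), and those of 11 did not. Without that library Tmem119 was at -0.95, Gpr34 at -0.75, P2ry12 at 0.27, Csf1r at 0.54 and Fcrls at 0.61. Of the other 6, Tyrobp was at 0.38, Laptm5 at 0.25, Itgb2 at 0.48 and Mrc1 at 1.0, and Cd53 and Apoe changed sign to 0.06 and 0.08. In whole tissue, fewer cells of a type and less RNA per cell cannot be told apart.

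**Figure D1:**
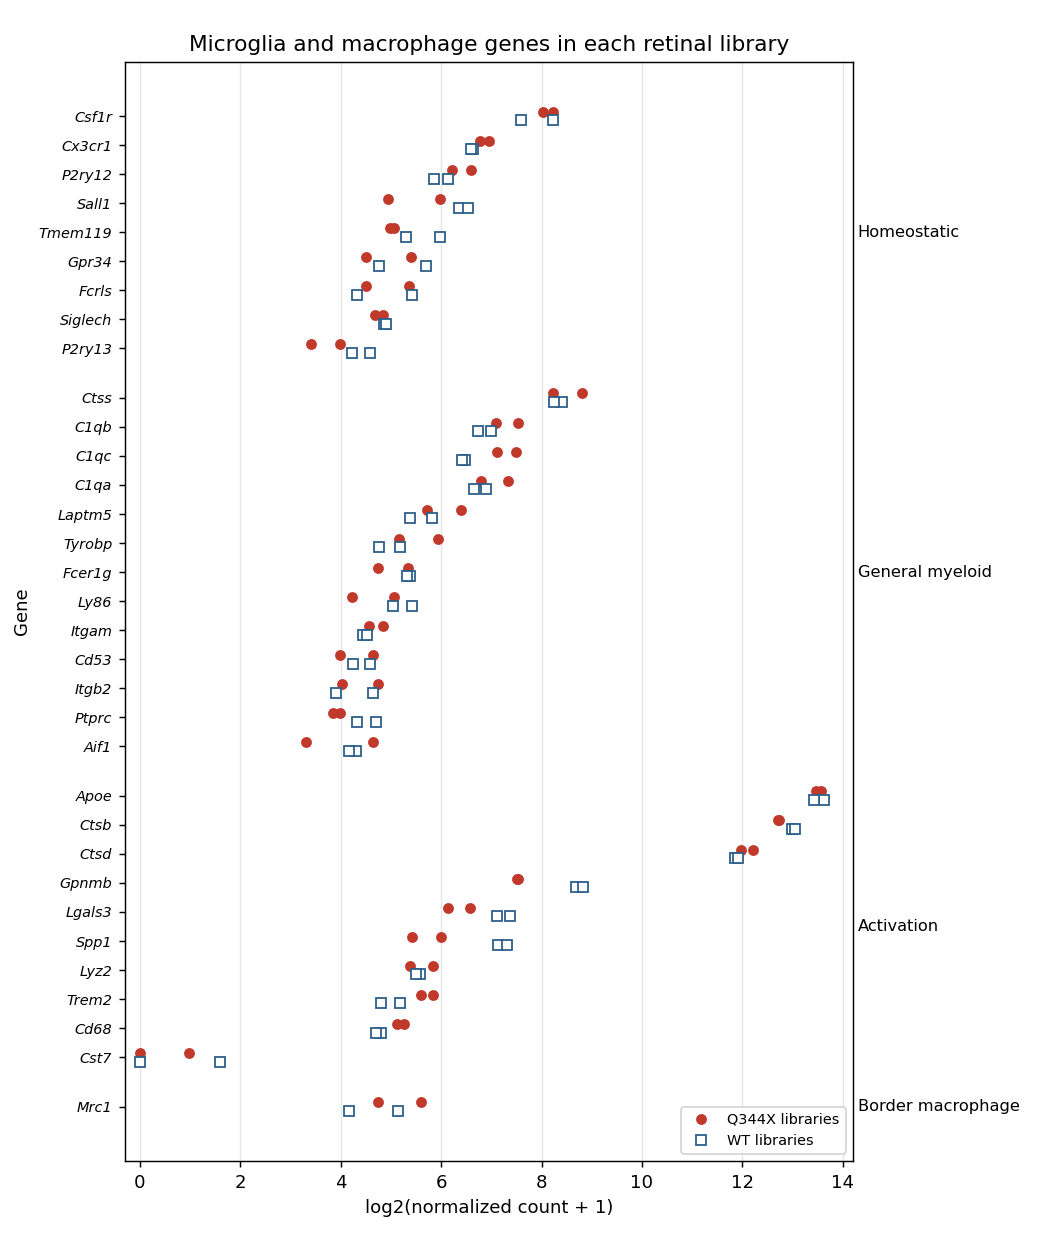
Level of each of the 33 genes in each library, as log2(normalized count + 1), by known role. Filled circles are the 2 Q344X libraries and open squares the 2 WT libraries. Both Q344X libraries lie below both WT libraries in 9 tested genes, Spp1, Gpnmb, Lgals3, Ctsb, Sall1, P2ry13, Tmem119, Siglech and Ptprc. They lie above in 8, the libraries overlap in 15, and Cst7 is near 0.

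The genes that fell, Spp1 and Gpnmb, both belong to the activation programme. Spp1 encodes osteopontin, a secreted adhesion protein of phagocytes (ENSMUSG00000029304, chromosome 5, 104435118 to 104441050, plus strand, GRCm38). It was at 41.6 and 63.3 normalized counts in the Q344X libraries, against 139 and 158 in the WT libraries. Both Q344X values were under the lower WT value by more than the spread within either genotype, with means of 52.5 ± 15.4 in Q344X and 149 ± 13.5 in WT (SD, n = 2 each). The log2 fold change was -1.51 ± 0.29 (SE, 95% interval -2.24 to -0.79, adjusted p = 0.028). Gpnmb encodes a membrane glycoprotein of lysosomes and melanosomes (ENSMUSG00000029816, chromosome 6, 49036546 to 49070929, plus strand). It was at 184 and 181 in Q344X, against 413 and 456 in WT, so the Q344X pair was nearly equal and well under both WT libraries, with means of 183 ± 1.94 in Q344X and 435 ± 30.6 in WT. The log2 fold change was -1.24 ± 0.19 (95% interval -1.71 to -0.77, adjusted p = 0.0164).

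Sizes held without WT replicate 1, but the calls did not, with Spp1 at -1.61 (adjusted p = 0.0548) and Gpnmb at -1.31 (0.0607). Without WT replicate 2 the adjusted p-values were 0.0789 for Spp1 and 0.0819 for Gpnmb, with no filter on low values they were 0.0794 and 0.0528, and over all alternatives they ran from 0.00118 to 0.0794 for Spp1 and from 0.00128 to 0.0819 for Gpnmb. In Spp1, 309 exon bases are shared with the same-strand gene Gm42793, which was at 0 in every library.

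**Figure D2:**
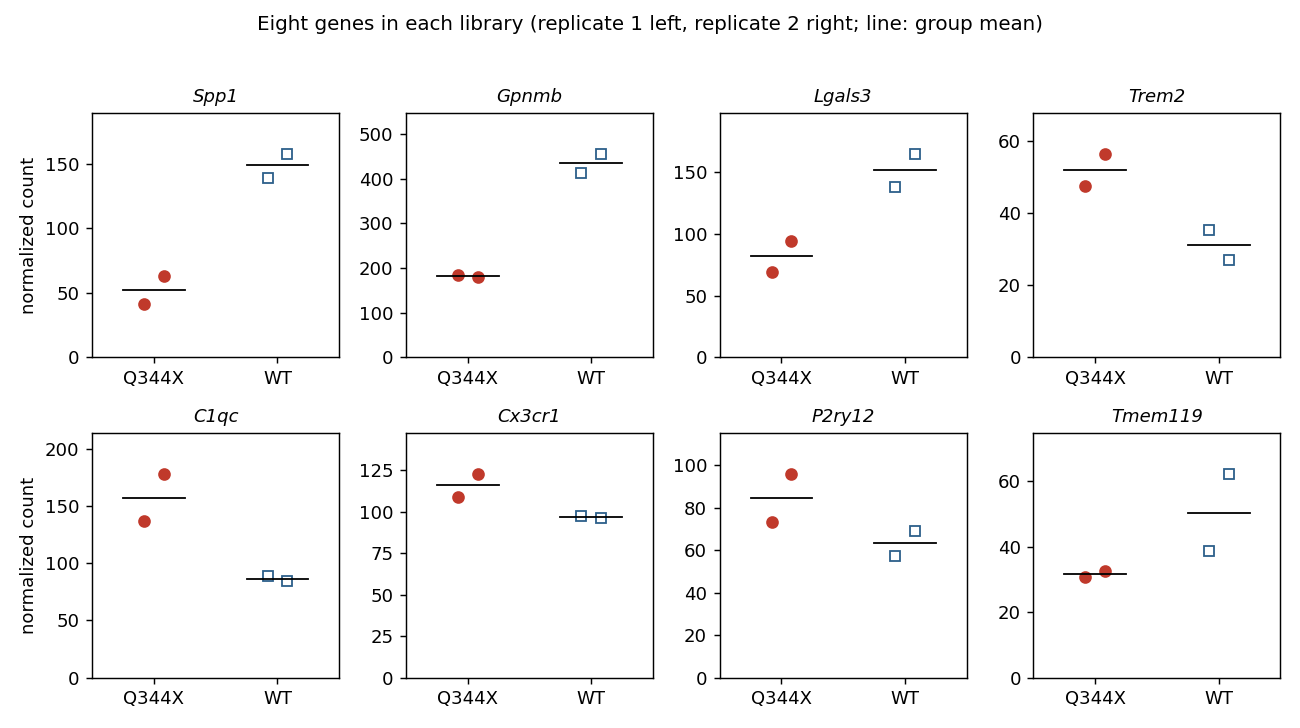
Normalized counts of 8 genes in each library, with Q344X (filled circles) left of WT (open squares), replicate 1 left of replicate 2 and a line at each group mean; axes start at 0. Spp1, Gpnmb and Lgals3 are lower in both Q344X libraries, Trem2, C1qc, Cx3cr1 and P2ry12 are higher in both, and Tmem119 is lower in both; adjusted p is under 0.05 for Spp1 and Gpnmb alone among them.

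Lgals3, which encodes galectin 3, a lectin of phagocytes (chromosome 14, 47367751 to 47386160, plus strand), had the next largest difference in the activation group. It was at 69.3 and 94.1 in Q344X, against 138 and 165 in WT, with no overlap. Its log2 fold change of -0.90 ± 0.26 did not pass (adjusted p = 0.0722, 95% interval -1.55 to -0.25), and over the alternatives it ran from -1.12 to -0.68. Leaving out Q344X replicate 2 gave -1.12 with an adjusted p of 0.0245, and the range over alternatives was 0.0245 to 0.333.

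Trem2, the lipid-sensing receptor that drives the activation programme in microglia (chromosome 17, 48346401 to 48354147, plus strand), pointed the other way. It was at 47.5 and 56.6 in Q344X and at 35.4 and 27.1 in WT. Its libraries did not overlap, yet the change of 0.73 ± 0.31 did not pass (95% interval -0.04 to 1.5, adjusted p = 0.162). Cd68, a lysosomal membrane protein of phagocytes, was at 33.7 and 37.4 in Q344X and at 27.0 and 25.1 in WT (0.43 ± 0.31, adjusted p = 0.37). Lyz2, the macrophage lysozyme, was at 40.6 and 56.6 in Q344X and at 46.8 and 44.1 in WT, with overlapping libraries (0.08 ± 0.31). Cst7, an inhibitor of lysosomal cathepsins that is close to absent from resting microglia, was listed at 0 and 0.96 in Q344X and at 0 and 2.01 in WT, which is 0 to 2 reads per library.

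The remaining activation genes are abundant and used by many retinal cells. Apoe, a lipid carrier that Müller glia also make, was at 11289 and 12172 in Q344X and at 12716 and 11063 in WT (-0.02 ± 0.18, 95% interval -0.46 to 0.43). Ctsd, the lysosomal protease cathepsin D, was at 4015 and 4753 in Q344X and at 3677 and 3845 in WT (0.22 ± 0.18, adjusted p = 0.43). Ctsb, cathepsin B, was at 6790.4 and 6668 in Q344X and at 8111 and 8489 in WT (-0.30 ± 0.17, adjusted p = 0.252). For these 3 genes the 95% intervals lay between -0.71 and 0.66, so changes of 1 on the log2 scale fall outside them. Counts of Ctsb are uncertain because 12.8% of its exon bases are shared with the opposite-strand gene Fdft1, and the sources used here do not say whether reads were counted by strand. Ctsd shares 34.4% of its exon bases with the same-strand gene Gm49369, which was listed at 0.

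Over the 9 tested activation genes the median log2 fold change was -0.02, with 2 lower, 0 higher and 7 not past the threshold. Apoe, Ctsd, Ctsb, Spp1, Gpnmb and Lgals3 are also expressed by other retinal or adjacent cells. Without them Trem2, Cd68 and Lyz2 remain, with a median of 0.43 and none past the threshold in limma. Restricted in the same way, and also without Sall1, the whole group had 25 tested genes, 0 higher and 0 lower in limma, 1 with an unadjusted p under 0.05 (C1qc) and a median of 0.19. The genes left out hold both called genes, Spp1 and Gpnmb, and also Lgals3 and Sall1. The 0 lower and the higher medians therefore follow from which genes were left out, a choice made with results known.

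**Figure D3:**
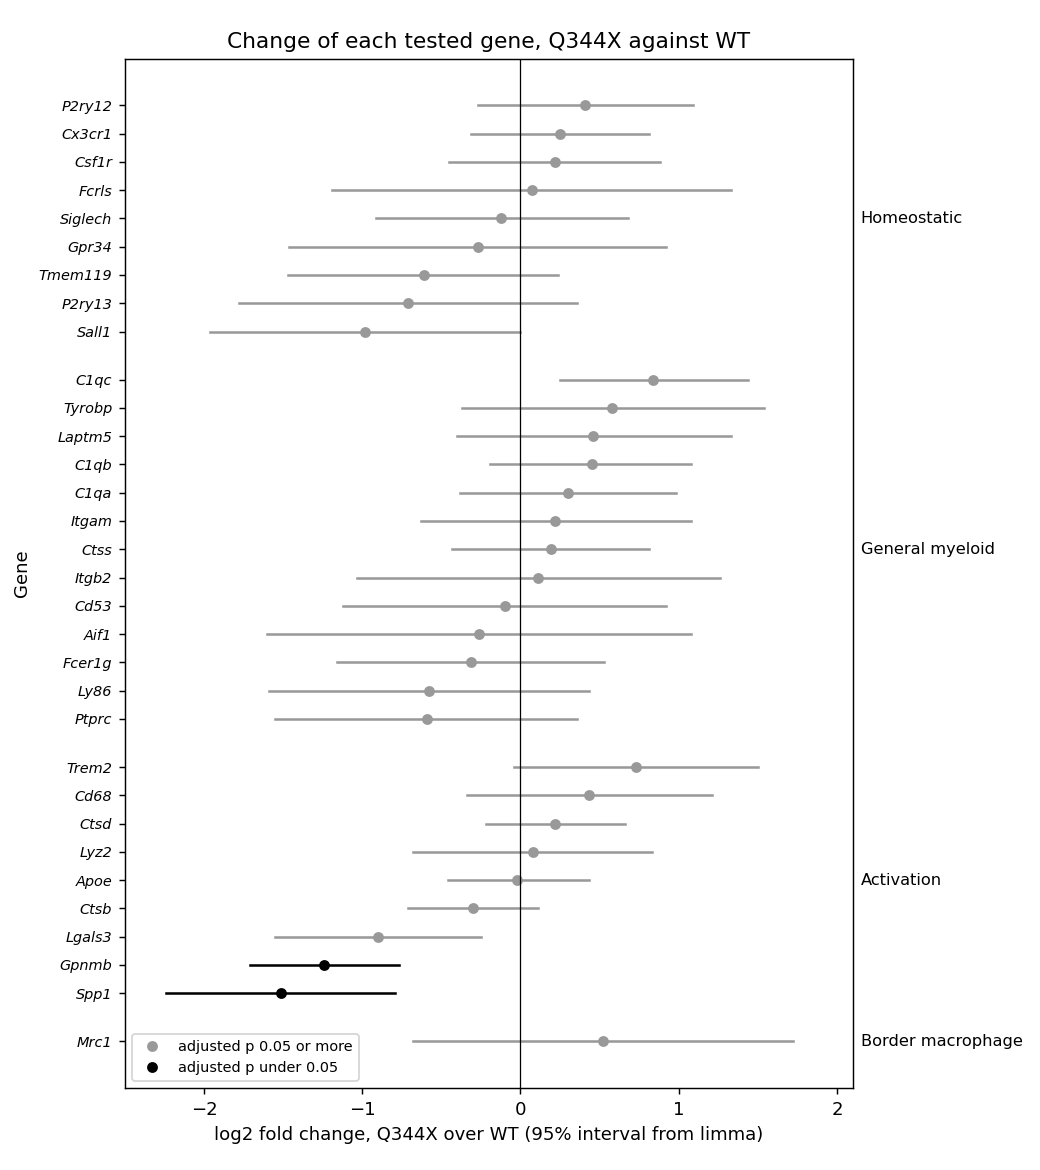
Log2 fold change of Q344X over WT for the 32 tested genes by role, with 95% intervals from limma. The intervals of Spp1 and Gpnmb (black, adjusted p under 0.05) and of Lgals3 lie below 0, that of C1qc lies above 0, and those of the other genes reach or include 0.

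None of the 9 homeostatic genes passed in limma, 1 had an unadjusted p under 0.05 (Sall1), and their median log2 fold change was -0.12. It was 0.04 under quantile normalization and -0.36 to 0.12 when a library was left out, so its sign is not fixed. Per kilobase of exon, Csf1r was the most abundant of them, with 48.2 normalized counts per kilobase in Q344X and 42.4 in WT. Csf1r encodes the receptor on which microglia depend for survival (chromosome 18, 61100598 to 61132149, plus strand). It was at 297 and 260.1 in Q344X and at 298 and 192 in WT, and the libraries overlapped (0.22 ± 0.27, adjusted p = 0.602). Of its exon bases 15.1% are shared with the opposite-strand gene Hmgxb3, so part of its count is uncertain.

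Cx3cr1, the fractalkine receptor (chromosome 9, 119901616 to 120069879, minus strand), was at 109 and 123 in Q344X and at 97.8 and 96.3 in WT. Both Q344X libraries were above both WT libraries by a small margin (0.25 ± 0.23, 95% interval -0.31 to 0.81, adjusted p = 0.468). P2ry12, the ADP receptor that guides microglial processes (chromosome 3, 59216272 to 59262871, minus strand), was at 73.3 and 96 in Q344X and at 57.2 and 69.2 in WT (0.41 ± 0.28, adjusted p = 0.339). P2ry13, its neighbouring purinergic receptor gene, was at 14.9 and 9.60 in Q344X and at 17.7 and 23.1 in WT (-0.71 ± 0.43, adjusted p = 0.294). The adjacent purinergic receptor genes thus had estimates of opposite sign, and neither passed. Tmem119, a membrane protein used to tell microglia from other macrophages, was at 30.7 and 32.6 in Q344X and at 38.5 and 62.2 in WT (-0.61 ± 0.35, adjusted p = 0.264).

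Sall1, a transcription factor that maintains microglial identity, had the lowest estimate of the homeostatic group. It was at 62.4 and 29.8 in Q344X, against 81.1 and 91.2 in WT (-0.98 ± 0.40, adjusted p = 0.144). The Q344X libraries differed from each other by 1.04 on the log2 scale, and without replicate 1 the change was -1.5 (adjusted p = 0.0052, with a range over alternatives of 0.0052 to 0.41). Siglech, an inhibitory lectin, was at 24.8 and 27.8 in Q344X and at 28.1 and 29.1 in WT (-0.12 ± 0.32). Gpr34, a lysophospholipid receptor, was at 21.8 and 41.3 in Q344X and at 26.0 and 51.1 in WT, and Fcrls, an Fc receptor-like gene of microglia, at 21.8 and 40.3 in Q344X and at 41.6 and 19.0 in WT. In Gpr34 the replicates differed by 0.89 on the log2 scale in Q344X and by 0.95 in WT, and in Fcrls by 0.86 in Q344X, more than the fold changes of -0.27 and 0.07 between genotypes.

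Complement component C1q is made in the retina chiefly by microglia, and its A, B and C chains are encoded side by side on chromosome 4, between 136880129 and 136898803 on the minus strand. C1qc was at 137 and 178 in Q344X, against 88.4 and 84.2 in WT, with no overlap and the highest estimate of the 32 genes. Its change of 0.84 ± 0.24 did not pass (95% interval 0.25 to 1.44, adjusted p = 0.0695). It passed without Q344X replicate 1 (1.03, adjusted p = 0.019) and under quantile normalization (1.04, adjusted p = 0.0472), and the adjusted p ran up to 0.289 over the alternatives. C1qb was at 135 and 183 in Q344X and at 126 and 105 in WT (0.45 ± 0.26, adjusted p = 0.27). C1qa was at 109.9 and 161 in Q344X and at 118 and 99.3 in WT, and these libraries overlapped (0.30 ± 0.28, adjusted p = 0.481). Of the summed counts of the 3 chains, C1qc took 35.8% and 34.0% in Q344X, against 26.6% and 29.2% in WT.

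Ctss, cathepsin S, a protease of antigen-presenting cells, was the most abundant general myeloid gene per kilobase, with 274 normalized counts per kilobase in Q344X and 236 in WT. It was at 299 and 446 in Q344X and at 338 and 302 in WT (0.19 ± 0.25, adjusted p = 0.618). Tyrobp, the adaptor through which TREM2 signals, was at 34.7 and 60.5 in Q344X and at 26.0 and 35.1 in WT (0.58 ± 0.39, adjusted p = 0.332). Fcer1g, the related adaptor of Fc receptors, was at 25.7 and 39.4 in Q344X and at 40.6 and 39.1 in WT (-0.31 ± 0.34, adjusted p = 0.55). Both adaptors had overlapping libraries. Aif1, which encodes the microglial stain IBA1, was at 8.91 and 24.0 in Q344X and at 18.7 and 17.0 in WT, so the Q344X pair spanned the WT pair (-0.26 ± 0.54).

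Of the surface proteins of leukocytes, Ptprc (CD45) was at 14.9 and 13.4 in Q344X and at 25 and 19 in WT (-0.59 ± 0.39, adjusted p = 0.324). Itgam (the integrin chain CD11b) was at 22.8 and 27.8 in Q344X and at 20.8 and 22.1 in WT (0.22 ± 0.35). It shares 68.7% of its exon bases with the same-strand gene Gm49368, listed at 0, so its level is uncertain. Its partner Itgb2, the tetraspanin Cd53, the lysosomal protein Laptm5 and the TLR-associated protein Ly86 had log2 fold changes of 0.11, -0.10, 0.46 and -0.58, all with overlapping libraries and adjusted p of 0.359 to 0.882. Over the 13 general myeloid genes 0 rose and 0 fell in limma, 1 had an unadjusted p under 0.05 (C1qc), and the median was 0.19. Mrc1, the mannose receptor of border macrophages, was at 47.5 and 25.9 in Q344X and at 34.3 and 17.0 in WT (0.52 ± 0.49, adjusted p = 0.49).

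Replicates of 1 genotype differed along with gene length. In Q344X, 24 of the 32 genes were higher in replicate 2 than in replicate 1, among them 11 of the 13 general myeloid genes, where 50.6% of all tested genes were. Across the 32 genes, this difference had a Spearman correlation of -0.60 with exon length, and across 16806 genes of the table one of -0.35. Between the WT libraries the correlation was -0.10 over the 32 genes and -0.16 over all, and 14 of the 32 were higher in replicate 2. These are correlations across genes of the same pairs of libraries. The fold change of Q344X over WT had a correlation of -0.14 with length over the 32 genes. Whether RNA quality has a part in these differences was not tested.

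**Figure D4:**
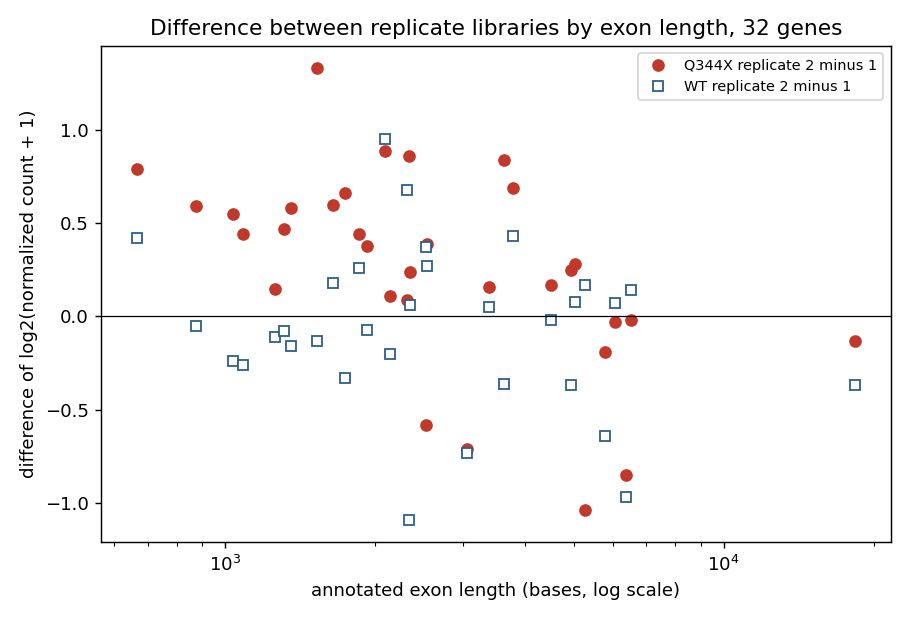
Difference between replicate libraries of 1 genotype, replicate 2 minus replicate 1 of log2(normalized count + 1), against annotated exon length on a log axis, for the 32 tested genes. In Q344X (filled circles) most short genes are higher in replicate 2 (Spearman correlation -0.60), and in WT (open squares) the points scatter around 0 (-0.10).

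Further genes of microglia and macrophages, 96 in 7 lists, gave 65 tested genes, of which 1 rose, 8 fell and 56 did not pass (median log2 fold change 0.01). That is 1.54% higher and 12.3% lower, beside 5.46% and 9.1% of all tested genes. Of 14 tested genes outside the group that were listed as homeostatic, Selplg (the selectin ligand PSGL-1) and Olfml3 (a secreted protein of microglia and of other tissues) fell and 12 did not pass. Estimates were positive in 9 of the 14 and negative in 5, with a median of 0.05. The highest, Gpr84 (1.1 ± 0.42) and Fcgr3 (1.09 ± 0.34), are not particular to resting microglia and did not pass. Selplg was at 19.8 and 16.3 in Q344X and at 44.7 and 49.1 in WT (-1.33 ± 0.33, adjusted p = 0.0476). Olfml3 was at 335 and 238 in Q344X and at 579 and 553 in WT (-1.0 ± 0.23, adjusted p = 0.0407). The most abundant of this list, Cst3 and Bin1, had -0.28 and 0.62 and did not pass. Of 16 further activation genes Lpl rose, Csf2ra fell and 14 did not pass. Lpl, a lipase of the activation programme that neurons and other cells also make, was at 1256 and 932 in Q344X, against 449 and 418 in WT (1.32 ± 0.21, adjusted p = 0.0189), with libraries far apart. Csf2ra, the receptor chain for GM-CSF, was at 242 and 262 in Q344X and at 527 and 418 in WT (-0.90 ± 0.21, adjusted p = 0.0427). Fth1 and Ctsl had 0.60 and 0.13, not past the threshold.

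Among 12 tested myeloid transcription factors Mitf fell, 0 rose and 11 did not pass, where 9.1% of all tested genes fell. MITF is a regulator of lysosomal and melanocyte genes and is known to drive Gpnmb, and it is also used by the pigment epithelium. Whether Mitf has a part in the lower Gpnmb was not tested. Mitf was at 100 and 97.9 in Q344X and at 196 and 181 in WT (-0.92 ± 0.21, adjusted p = 0.0412). Bhlhe41 and Maf, the most abundant of the list, had 0.56 and -0.46, not past the threshold. None of 7 tested ligands passed in limma, and 2 had an unadjusted p under 0.05, where 34.7% of all tested genes had one. The ligands of the receptors above, named after their values were seen, were Csf1 at -0.02 ± 0.23 and Il34 at -0.55 ± 0.25 for Csf1r, and Cx3cl1 at -0.38 ± 0.24 for Cx3cr1. Gas6 and Tgfb2, the most abundant of the list, had -0.13 and 0.16.

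Most of the inflammatory mediators were too rare to test. Of 17 listed, 12 had a mean under 10, 5 were tested, 0 passed in limma and 1 had an unadjusted p under 0.05, with a median of -0.68. Il18, a cytokine of the interleukin 1 family and the most abundant, was at 83.2 and 69.1 in Q344X and at 145 and 103 in WT (-0.68 ± 0.28, adjusted p = 0.143). Cd14, a receptor for bacterial lipopolysaccharide, was at 18.8 and 5.76 in Q344X and at 33.3 and 23.1 in WT (-1.31 ± 0.60, adjusted p = 0.184). Tnf and Il6 were listed at 0 in all 4 libraries, and Il1b was at 12.9 and 0.96 in Q344X and at 1.04 and 0 in WT. Of 7 antigen presentation genes 5 were tested, Cd74, the invariant chain, fell with -2.09 ± 0.48 (adjusted p = 0.0408) and 4 did not pass. Cd74 was at 9.9 and 4.8 in Q344X and at 29.1 and 37.1 in WT. Of the 4 not past the threshold, H2-Eb1 and H2-DMb1 had -0.81 and -0.31, and H2-Ab1 and H2-DMa had 0.52 and 0.42. H2-Aa, too rare to test, was at 2.97 and 0.96 in Q344X and at 16.6 and 17 in WT.

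Markers of border and recruited macrophages were in part lower. Of 12, 6 were tested, 3 fell, 0 rose and 3 did not pass, where 9.1% of all tested genes fell. Of the 3 not past the threshold, Cd163 and F13a1 had positive estimates (0.79 ± 0.56 and 0.79 ± 0.53) and Stab1 a negative one (-0.23 ± 0.28). Plac8, expressed by monocytes and other cells, was at 2.97 and 3.84 in Q344X and at 21.8 and 23.1 in WT (-2.42 ± 0.47, adjusted p = 0.0282). Cbr2, a carbonyl reductase of border macrophages, was at 20.8 and 30.7 in Q344X and at 66.6 and 69.2 in WT (-1.39 ± 0.32, adjusted p = 0.0427). Lyve1, a hyaluronan receptor of border macrophages and lymphatic vessels, was at 119 and 112 in Q344X and at 260 and 204 in WT (-0.99 ± 0.23, adjusted p = 0.0419). The monocyte genes Ccr2 and Ly6c2 were listed at 0 in every library. The summed level of the 12 genes was 336 and 285 in Q344X and 545 and 448 in WT. This sum rests largely on Lyve1 and Stab1, with means of 174 and 129.9 over all libraries, and leaves out Mrc1.

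Blood genes moved with the same contrast. All 5 red blood cell genes were lower in both Q344X libraries than in both WT libraries, where 31.7% of all tested genes were. Of the 5, 2 were past the threshold, where 9.1% of all tested genes fell. The sum of the 5 was 127 and 264 in Q344X and 493 and 520.4 in WT. Those past the threshold were Hbb-bt (-2.82 ± 0.52) and Hba-a1 (-1.72 ± 0.33). The part of blood or of adjacent tissue in the lower values of Spp1, Gpnmb and the border macrophage genes was not tested. Of 12 markers of lymphocytes, natural killer cells and neutrophils, Cd8a rose (3.02 ± 0.39, adjusted p = 0.0108), 11 were too rare to test, Ly6g was listed at 0 throughout, and Cd3d and Cd3e, which mark T cells, were at 0 to 0.99 in every library.

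Markers of other cells that express Spp1 or Gpnmb were also read. Beside the counts below, 5.46% of all tested genes rose, 9.1% fell and 34.7% had an unadjusted p under 0.05 in limma. Of 10 ganglion cell markers, cells known to express Spp1, 3 rose, 0 fell and 7 did not pass, with a median of 0.76. In all 10 both Q344X libraries were above both WT libraries, where 31.4% of all tested genes were. The sum of the 10 markers was 27328 and 31360.5 in Q344X and 16503 and 18425 in WT. Those past the threshold were Isl2 (1.58 ± 0.32), Sncg (1.11 ± 0.25) and Nefm (1.02 ± 0.17). Of 9 tested markers of pigment epithelium and melanocytes, cells known to express Gpnmb, Pmel (1.53 ± 0.23), Rpe65 (1.19 ± 0.20) and Tyr (1.04 ± 0.24) rose, 0 fell and 6 did not pass. Their median was 0.32, and Tyrp1 (-0.58 ± 0.19) and Slc45a2 (-0.23 ± 0.36) had negative estimates. The sum of the 10 listed markers was 6112 and 7786 in Q344X and 4645 and 5205 in WT. Of 10 markers of Müller glia, which make Apoe, Aqp4 and Kcnj10 fell, with -1.0 ± 0.20 and -0.85 ± 0.17, 0 rose and 8 did not pass. All 10 estimates were negative, with a median of -0.23, beside 0.02 for all tested genes. None of 7 endothelial and pericyte markers passed in limma, 3 had an unadjusted p under 0.05, and their median was 0.38. Of the rod markers reported here, Gnat1 fell (-2.31 ± 0.20, adjusted p = 0.00532). Pde6b, Nrl, Sag and Nr2e3 had -0.75, -0.43, -0.04 and 0.51 and did not pass.

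Without WT replicate 1, all 20 genes called in these further lists, rods aside, kept their direction, and 3 of them, Lpl, Cd8a and Hbb-bt, remained past the threshold. The others lost their calls. Such losses were not particular to WT replicate 1, since Olfml3, Selplg, Mitf, Cd74, Kcnj10 and others also lost their calls without WT replicate 2. With no filter on low values Lpl (adjusted p = 0.061) and Hbb-bt (0.0727) also lost theirs, and Cd8a kept it (0.0489).

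**Figure D5:**
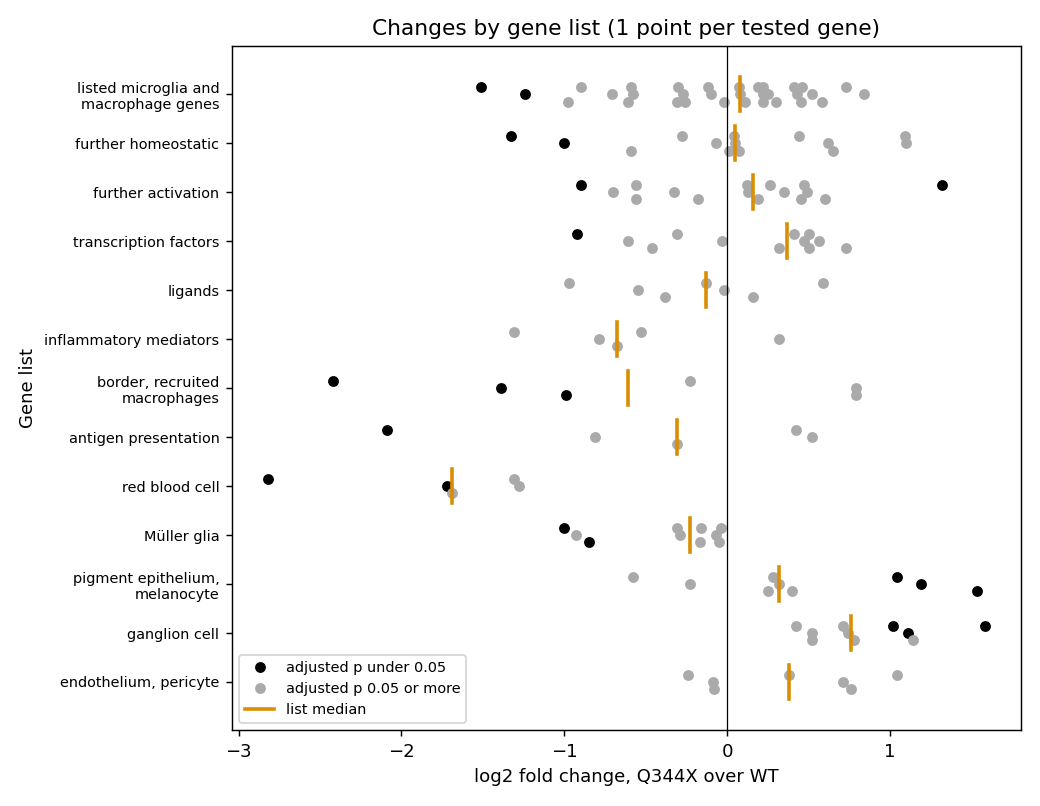
Log2 fold change of Q344X over WT for the listed genes and for further gene lists, 1 point per tested gene, black where adjusted p is under 0.05, with a bar at each list's median. The 32 genes lie between -1.51 and 0.84 around a median of 0.07, the red blood cell genes lie below 0 and the ganglion cell genes above 0.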

How the data were processed

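Per the submitters' processing notes the reads were handled with DESeq2 1.16.1, featureCounts, STAR, Trim Galore 0.4.4 and FastQC, and the build was mm10. The authors deposited a signal per gene, which is a gene count divided by a size factor for each library (normalized count). Divided by the value of 1 read in its library, each nonzero value lay within 0.1 of a whole number. In 2 libraries that value was too close to 1 for the recovered reads to be checked, so no count model was fitted. The sources used here do not state the gene annotation or the strand setting.

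Symbols were paired by Ensembl identifier for 52403 genes. Positions and exon lengths are those of GENCODE M21 (GRCm38), and promoters those of RefSeq. Genes with a mean of at least 10 were tested in R 4.3.3 with limma 3.58.1 on log2(normalized count + 1), variances moderated toward a trend with level, Benjamini-Hochberg adjustment over 16833 genes and a threshold of 0.05. All tests were two-sided. Fold changes are on that log2 scale, which understates changes of rare genes. A permutation test of 2 against 2 libraries cannot give a p below 0.333. The test was checked on simulated data. Intervals are 95% intervals from limma.

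The genes, their roles and the further lists were chosen with earlier results of these data known. Values in every library are given for genes past the threshold, for those the list's definition names and for the most abundant of each role. Of each further list, the mutated gene aside, genes past the threshold (at most 4, largest change first) and up to 2 of the highest mean are named. Other genes of these lists were named after their values were seen. Alternatives were other pseudocounts, filters, scalings, robust moderation and leaving out each library. The level of the mutated gene is not reported here.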

Additional observations from a re-analysis of the deposited data

How the results depend on the processing

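No paired analysis was possible because the labels give no replicate numbers that pair libraries. Testing every gene above 0 left 0 of the group lower, with 153 genes of the table higher and 383 lower, against 919 and 1531. Leaving out 1 library gave 388 to 2353 higher and 666 to 2973 lower genes of the table, and 0 to 1 higher and 0 to 3 lower genes of the group; with either WT library left out, 0 were lower. Quantile normalization gave 1 higher gene, C1qc. With a minimum mean of 50 the medians were 0.23 for homeostatic genes (4 tested) and -0.60 for activation genes (6 tested), and without genes of other retinal cells the activation median was 0.43; the set of genes differs by construction. Fits without 1 library take the spread of the lone library's genotype from the intact pair.

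Of 734 gene values under alternatives, 640 kept direction and side of the threshold, 64 lost the call, 8 gained it and 22 changed sign. In each sign change neither value passed. Under quantile normalization Siglech became 0.04, Cd53 0.06 and Csf1 0.19. With each library left out in turn, the other sign changes lay in the ranges -0.93 to 0.41 for Aif1, -0.12 to 0.08 for Apoe, -0.43 to 0.23 for Cd53, -0.07 to 0.02 for Csf1, -0.10 to 0.54 for Csf1r, -0.58 to 0.01 for Cst3, -0.08 to 0.34 for Ctsl, -0.09 to 0.48 for Ctss, -0.47 to 0.61 for Fcrls, -0.35 to 0.10 for Gas6, -0.75 to 0.20 for Gpr34, -0.25 to 0.48 for Itgb2 and -0.16 to 0.31 for Lyz2. The cause of each was not tested. The 95% intervals of 9 of the 32 genes exclude a change of 1 on the log2 scale in both directions.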

Other observations

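Cd8a, named here after its values were seen, was the largest change in the lists of leukocyte markers. It was at 121 and 72.0 normalized counts in Q344X, against 9.36 and 12 in WT (log2 fold change 3.02 ± 0.39, SE, limma adjusted p = 0.0108), and stayed past the threshold in the fits without any 1 library (adjusted p = 0.000171 to 0.0489 over all alternatives). Cd3d and Cd3e, genes of the T cell receptor complex, were at 0 to 0.99 in all 4 libraries, and Nkg7, of cytotoxic lymphocytes, was at 11.9 and 0.96 in Q344X and at 1.04 and 1 in WT.

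The ratio of Spp1 to P2ry12 was 0.568 and 0.66 in Q344X and 2.44 and 2.29 in WT, and that of Gpnmb to P2ry12 was 2.51 and 1.89 in Q344X and 7.22 and 6.59 in WT. The ratio of Trem2 to P2ry12 was 0.649 and 0.59 in Q344X and 0.618 and 0.391 in WT. These are ratios of normalized counts within a library, with no test. P2ry12 had the highest estimate of the homeostatic genes (0.41), which widens the first 2 differences. Spp1 and Gpnmb are also expressed by other retinal or adjacent cells.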
